A study of Homo sapiens with 2 samples.

Results

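The strong single bin pairs of the TCF3::HLF-HiChIP map are 704 of the 49245 listed interactions (1.43%). An interaction was selected on its contact count and its sumCC: it was taken where at least 50 read pairs joined its 2 bins of 5 kb and where its sumCC, the contact counts added up over a merged group of neighboring significant bin pairs, equaled its own contact count. Both measures are therefore given as a description without a test. The name says only that FitHiChIP merged no neighboring bin pair with them. It does not say that they stood alone, since 449 of the 704 (63.8%; Wilson 95% interval, 60.2 to 67.2%) had another listed interaction with both of its bins within 25 kb of theirs, against 34.5% of all listed interactions.

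The cells were HAL-01, a leukemia cell line with t(17;19) that expresses TCF3::HLF, with stable Cas9-GFP and with the wild-type TCF3 allele knocked out by an sgRNA, so that the E2A (TCF3) antibody pulls down the fusion. The knockout line was grown from diluted cells as a colony, and it may not stand for all HAL-01 cells. The design held a single condition with 2 replicates and no other group. Both replicates were merged before interactions were called, and no value below has a replicate error. All intervals cover counting error only, and they are a lower limit of it because copies of read pairs were not removed.

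TCF3::HLF joins the transactivation domains of TCF3, a factor of lymphoid development, to the part of HLF that binds DNA and forms dimers. HLF is a basic leucine zipper factor of early hematopoietic cells, and it binds palindromes of the form TTACGTAA as a dimer, and TTATGTAA is a close variant. HiChIP ligates DNA ends that lie close to each other in the nucleus and enriches them with an antibody, so that a high contact count marks a pair of sites that were often found together with the protein at or near at least one of them. CTCF, a zinc finger protein, is known to anchor chromatin loops at sites whose motifs face each other.

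Pairs among those with the largest contact counts, and the BCL6 pair described further on, are shown here by an HLF motif in their bins. The motif was searched in the sequence alone. The choice of bins is not independent of it, since calling used peaks of the same reads, and the paper reports the motif enriched in its peaks. Each line gives the 8 bases of the motif in capitals with 10 bases on each side, read along the strand named, with the hg38 position of the motif itself.
Start bin of VAMP4, intergenic upstream of the gene body, chr1:171743144-171743151, plus strand: atgtttatttTTATGTAAaaatgtacta
Intergenic bin nearest C11orf97, the partner of PANX1, chr11:94507075-94507082, plus strand: gtgaatagggTTATGTAActatcaccca
Intron of RABGAP1L, in the bin with 38 interactions, chr1:174942976-174942983, minus strand: agcaaggctgTTATGTAAtcattctgct
Partner bin of TOB1, intergenic, chr17:50931306-50931313, plus strand: gtggcgccggTTACGTAAccgggcggct
Intron of PPP2R5A, the partner of DTL, chr1:212359028-212359035, minus strand: aggaagtaaaTTATGTAActaccctcaa
Intron of SLFN12L, the partner of SLFN13, chr17:35523441-35523448, plus strand: gaagaggaagTTACGTAAaagcttttat
Intron of CDK6, chr7:92827981-92827988, minus strand: ctctggcacaTTATGTAAcattctggtt
Start bin of BCL6, intergenic upstream of the gene body, chr3:187746243-187746250, plus strand: gtttgtggtgTTACGTAAatcacaggat
TTATGTAA, the variant with a T in the center, made up 670 of the 736 motifs in the bins of the strong single bin pairs (91.0%), and TTACGTAA made up 66. Of these motifs 418 (56.8%; 53.2 to 60.3%) lay in introns of protein-coding genes and 209 (28.4%; 25.3 to 31.8%) were intergenic, 19 lay in UTRs and 4 in coding sequence. The motifs of all anchor bins lay in introns of protein-coding genes in 51.8% and between genes in 30.7%.

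The contact counts of the strong single bin pairs ran from 50 to 154, with a median of 57, and most lay close to the threshold. A total of 434 had 50 to 59 counts, 223 had 60 to 79, 34 had 80 to 99 and 13 had 100 or more. Just inside the threshold, 63 had a contact count of 50, and just outside it 72 single bin pairs had a contact count of 49. On the side of the sumCC, the smallest excess over the contact count among the merged interactions of at least 50 counts was 14. Together the 704 held 42631 of the 1268490 contact counts in the list (3.36%), and their listed P values ran from 1.22e-131 to 2.24e-17.

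Strong single bin pairs formed 50.5% of the 1393 interactions that reached the threshold of 50 counts. The other 689, called strong merged interactions below, came from 637 merged groups, since a group could be listed with more than 1 bin pair. The weaker single bin pairs, with contact counts under 50, numbered 44754. The share of single bin pairs among the strong interactions was 47.0% (43.2 to 50.9%) at 50 to under 100 kb and 46.7% (42.0 to 51.5%) at 100 to under 200 kb. It was 58.8% (52.7 to 64.6%) at 200 to under 500 kb and 77.3% (65.8 to 85.7%; 51 of 66) at 500 kb to 3 Mb. Whether a pair is single is part of the rule, so these shares are a description, and no difference between the bands was tested.

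**Figure D1:**
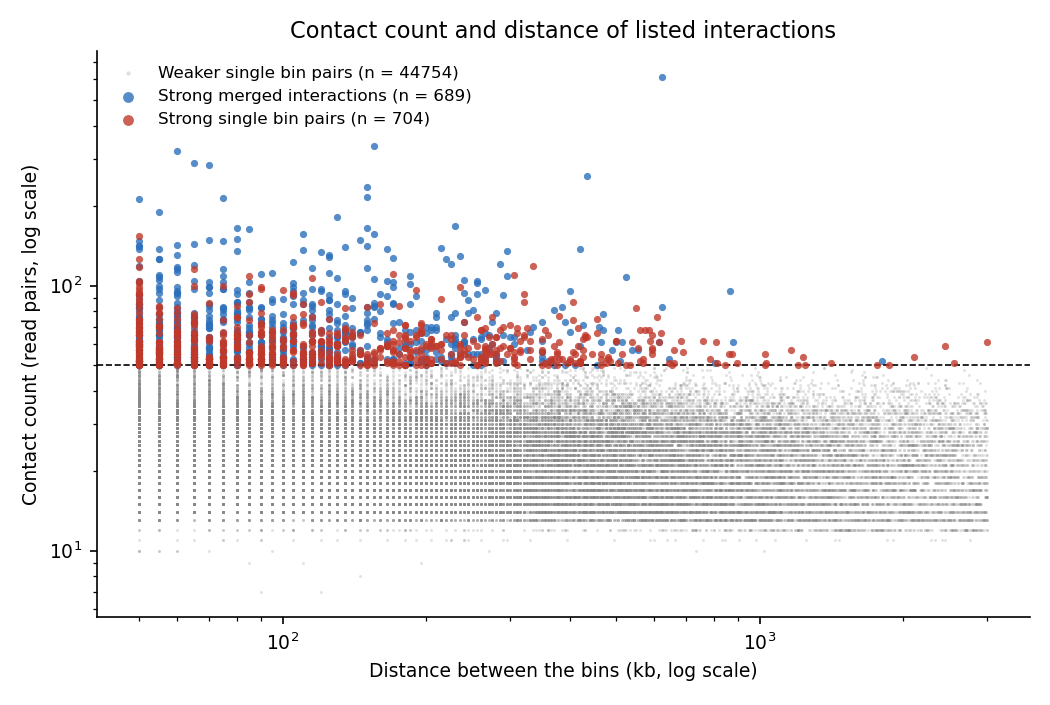
Contact count (read pairs, log scale) against the distance between the bins (kb, log scale) for the 704 strong single bin pairs (red), the 689 strong merged interactions (blue) and the 44754 weaker single bin pairs (gray); the dashed line marks a contact count of 50. Each point is 1 listed interaction; the red points lie mostly near the line and reach 154, while the blue points reach 615.

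The bins of the strong single bin pairs lay a median of 115 kb apart (95% interval, 105 to 125 kb), against 100 kb (90.0 to 105 kb) in the strong merged interactions and 275 kb (275 to 280 kb) in the weaker single bin pairs. The strong single bin pairs thus sat nearer to the strong merged interactions in distance, with 303 of them (43.0%) under 100 kb against 19.8% of all listed interactions. Fewer of them were far apart, with 51 (7.24%) at 500 kb or more and 14 over 1 Mb. The median contact count of all listed interactions was 27 at 50 kb and 17 at 3000 kb. Relative to the median of all listed interactions at exactly the same distance, the contact counts of the strong single bin pairs were 1.85 to 5.70 times as high, with a median of 2.29. The rule of at least 50 counts lies above medians such as these, so that counts above the median follow from the selection.

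The largest contact count belonged to a bin pair on chromosome 1 with 154 counts (Poisson 95% interval, 131 to 180). It joined the start bin of VAMP4, a SNARE protein of the Golgi, to a bin within METTL13, a methyltransferase of an elongation factor, at 50 kb, where the median of 1393 listed interactions was 27 counts. Its VAMP4 bin took part in 5 interactions and held 1 HLF motif, and its METTL13 bin took part in this interaction only and held none.

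The pair of PANX1, a membrane channel, and the bin nearest C11orf97 had 119 counts (98.6 to 142) over 335 kb, which was 5.17 times the median of 23 at that distance, with 4 protein-coding genes starting in between. No other listed interaction lay within 25 kb of it.

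Among the strong single bin pairs with the 15 largest contact counts, 14 held an HLF motif. A protein-coding gene started in a bin of 3, and 7 lay with both bins in 1 gene. Over all listed interactions these shares were 66.8%, 16.2% and 13.1%. The last share depends on distance. At 50 to under 100 kb, where most of the 15 lay, it was 32.5% of all listed interactions. A further pair, from the bin near GTF2A1 to an intergenic bin nearest STON2, tied with the last of the 15 at 99 counts. It is not counted among the 15, and it held an HLF motif and no gene start. RABGAP1L, a Rab GTPase-activating protein, had 2 of the 15, with 118 counts (97.7 to 141) over 50 kb and 109 counts (89.5 to 131) over 85 kb. They share a bin, which took part in 38 listed interactions, and lead from it to either side within the gene. The other pairs within 1 gene were those of EYA4, a transcriptional coactivator (107 counts), LHFPL6 (104), SEC14L1 (102), BABAM2, a subunit of a deubiquitinating complex (99), and CDK6, a kinase of the cell cycle (99). The bins in SEC14L1, BABAM2 and EYA4 took part in 39, 30 and 23 interactions, while their partners took part in 1 each.

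TOB1, an antiproliferative protein, had 116 counts (95.9 to 139) between its start bin and a bin 65 kb away, and both bins held 1 HLF motif. SLFN13, of the Schlafen family, had 100 counts (81.4 to 122) from its start bin to a bin within SLFN12L. DTL, a substrate receptor of a ubiquitin ligase, and PPP2R5A, a regulatory subunit of protein phosphatase 2A, were joined over 305 kb with 110 counts (90.4 to 133). The pair nearest SV2B had 111 counts (91.3 to 134) and held no HLF motif, the only such pair of the 15. Neighbors in this order had overlapping intervals, also VAMP4 and PANX1, so the order from one pair to the next is not resolved.

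**Figure D2:**
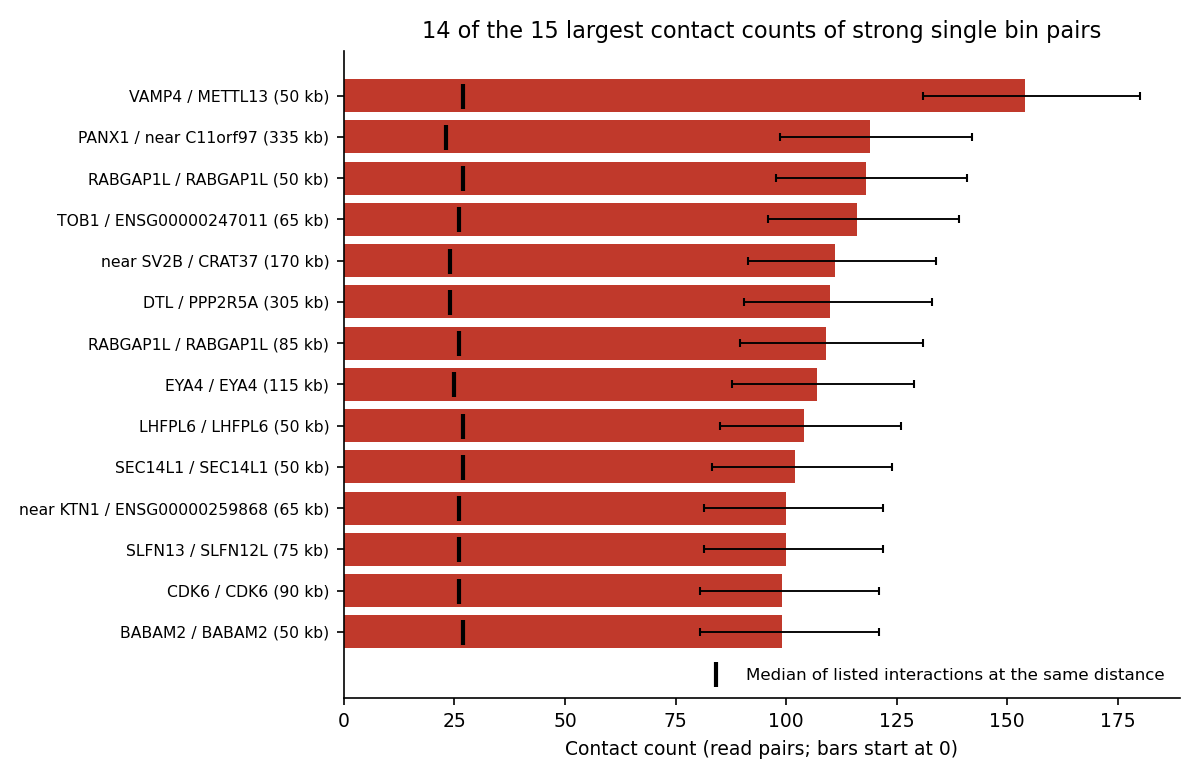
Contact counts (read pairs, bars from 0) of 14 of the 15 strong single bin pairs with the largest values, named by the genes of their bins, with exact Poisson 95% intervals as black lines and the median of listed interactions at the same distance as a black tick. The bars run from 99 to 154, all above their ticks, which lie between 23 and 27, as the rule of at least 50 counts requires.

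Near-identical sequence in both bins was not found among the strong single bin pairs. None of the 704 shared 500 or more 31-mers between its bins, which allows a share of up to 0.426% when 3 counts are taken as the limit of a count of 0 (Wilson upper limit, 0.543%), against 0.0264% of all listed interactions. The largest number of shared 31-mers was 215, in LHFPL6, followed by the pairs at CSTL1, GAB2, DNM2 and SLC25A33 with contact counts of 60, 52, 53 and 63, and 3 pairs shared 100 or more. In the less unique bin of a pair, a median of 88.8% (88.0 to 89.6%) of the 31-mers occurred once in hg38, against 86.2% over all listed interactions, and 7 pairs had a bin with under 50%.

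The bins of a strong single bin pair differed in how many listed interactions they took part in, as in the list as a whole. The busier bin had a median of 10 interactions (9 to 11; range, 1 to 49), against 7 over all listed interactions, and the less busy bin a median of 1 in both. A bin used once was present in 75.7% (72.4 to 78.7%), against 83.3% of all listed interactions. A hub, meaning a bin with 10 or more listed interactions, was present in 369 of 704 (52.4%; 48.7 to 56.1%), against 32.0% of all listed interactions, 76.5% (73.2 to 79.5%) of the strong merged interactions and 29.9% (29.4 to 30.3%) of the weaker single bin pairs. Hubs on both sides were found in 7 pairs (0.994%; 0.482 to 2.04%), against 0.288% of all listed interactions and 3.63% of the strong merged interactions. A hub joined to a bin used nowhere else occurred in 274 (38.9%; 35.4 to 42.6%), against 25.4% of all listed interactions, and 6 pairs (0.852%; 0.391 to 1.85%) consisted of bins that were both used once, against 1.42%.

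The share with a hub lay between those of the other classes at each distance. It was 45.2% at 50 to under 100 kb, 53.8% at 100 to under 200 kb, 62.3% at 200 to under 500 kb and 60.8% at 500 kb to 3 Mb. The weaker single bin pairs had 23.7%, 27.6%, 31.9% and 33.0% in the same bands. The coverage of the bins is not in the list, and a bin with more reads can have both larger contact counts and more listed interactions; the part of coverage in these shares was not tested.

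The other interactions near a strong single bin pair were mostly weaker and mostly ran from the same bin. The rule makes weaker neighbors likely, since it took pairs of at least 50 counts and 1393 of the 49245 listed interactions reached that. Of the 449 pairs with another listed interaction within 25 kb, 365 (81.3%) had one that shared a bin with them, close to the 80.5% of the strong merged interactions. The largest contact count among these nearby interactions had a median of 36, and it reached 50 or more for 106 pairs (23.6%), against 39.1% for the strong merged interactions. Another interaction lay within 25 kb of 87.2% of the strong merged interactions, where it can belong to the same merged group, and of 31.2% of the weaker single bin pairs. For the strong single bin pairs the share was 69.3% at 50 to under 100 kb and 29.4% (18.7 to 43.0%) at 500 kb to 3 Mb, against 50.6% and 10.3% for the weaker single bin pairs.

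The 704 pairs used 1290 bins, 2.41% of the 53535 anchor bins, and 280 of the 1126 bins with 10 or more interactions (24.9%). A bin with more interactions has more chances to be in such a pair, so these 2 shares are no like comparison. Most of the 1290 bins, 1200, took part in 1 strong single bin pair, while 68 took part in 2, 17 in 3, 4 in 4 and 1 in 5. The bin with 5 lay within LPP, a LIM domain protein, on chromosome 3 at 188295001 to 188300000, with 33 listed interactions and no HLF motif. The bins with 4 lay within TENM4, BABAM2 and DLGAP2 and near GTF2A1, with 34, 30, 27 and 28 listed interactions.

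An HLF motif was found in a bin of 512 strong single bin pairs (72.7%; 69.3 to 75.9%), against 66.8% of all listed interactions, 78.1% (74.8 to 81.0%) of the strong merged interactions and 66.3% (65.9 to 66.7%) of the weaker single bin pairs. The difference from the weaker single bin pairs was seen at 50 to under 100 kb, with 75.2% (70.1 to 79.8%) against 65.1%, and at 200 to under 500 kb, with 75.5% (68.1 to 81.7%) against 66.5%. The intervals overlapped at 100 to under 200 kb, with 68.3% against 64.8%, and at 500 kb to 3 Mb, with 66.7% against 67.8%. Both bins held a motif in 131 pairs (18.6%; 15.9 to 21.7%), against 16.2% of all listed interactions, which lies within the interval, and 23.1% of the strong merged interactions. With 1 bin added on each side, a motif was found in 89.9% of the strong single bin pairs and 90.4% of all listed interactions, and among the 255 pairs with no other listed interaction within 25 kb it was found in 67.1%. With the bins added no difference from the list was seen, but most interactions then hold a motif, which leaves little room for one. For the 255 pairs no share of the list under the same filter is given, so they have no like comparison.

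**Figure D3:**
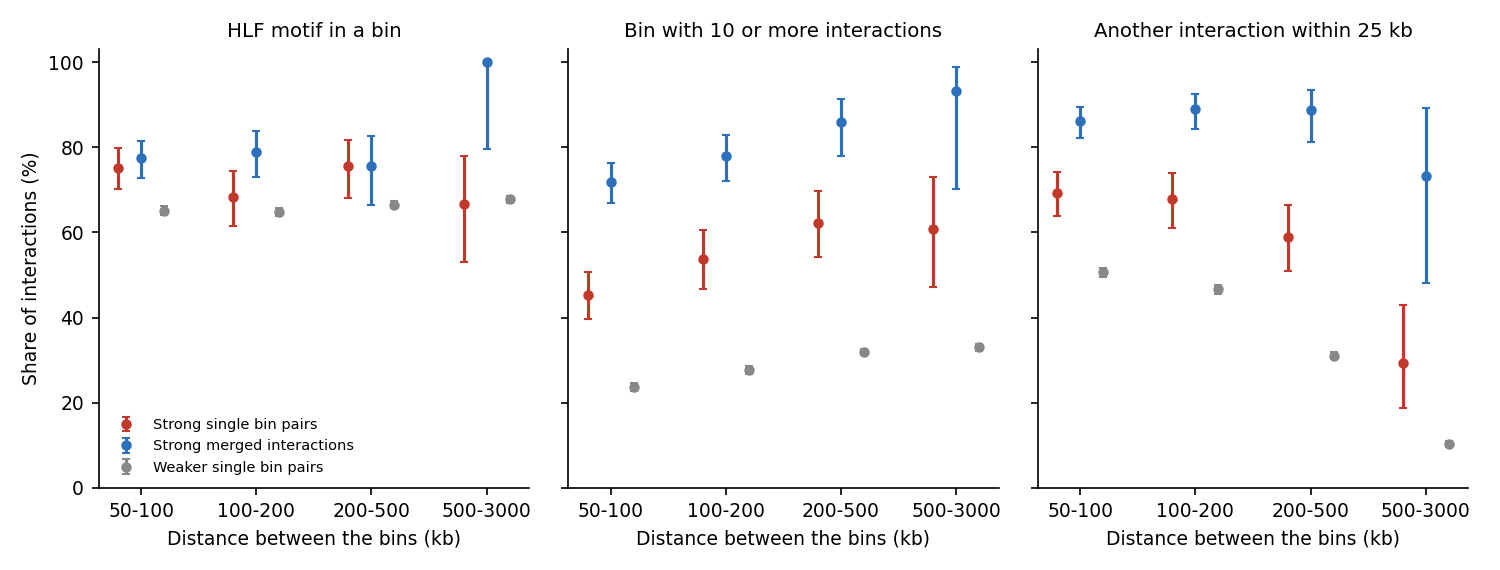
Share of interactions (%) with an HLF motif in a bin, with a bin of 10 or more listed interactions and with another listed interaction within 25 kb, by distance between the bins (kb), for strong single bin pairs (red), strong merged interactions (blue) and weaker single bin pairs (gray). Points are shares and lines are Wilson 95% intervals; in the middle and right panels the red points lie between the blue and gray ones in each band, from 45.2% to 62.3% in the middle panel.

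The motif was more frequent in the busier bin of a pair. Calling used peaks of the same reads, in which the paper reports the motif enriched, and the part of this in the shares was not tested. In the 694 strong single bin pairs whose bins differed in the number of interactions, 301 (43.4%; 39.7 to 47.1%) held it in the busier bin only and 73 (10.5%; 8.45 to 13.0%) in the less busy bin only. Counted over distinct bins, the HLF motif was present in 353 of 582 busier bins (60.7%; 56.6 to 64.5%) and in 27.6% (24.8 to 30.7%) of the 887 bins 25 kb away that were not anchors. Of the less busy bins 203 of 691 held one (29.4%; 26.1 to 32.9%), against 25.8% (23.2 to 28.6%) of the bins 25 kb from them, which overlapped. The strong merged interactions had 64.6% (60 to 68.9%) in the busier bins, and the weaker single bin pairs had 47.4% (46.3 to 48.4%).

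The share followed the number of interactions of the busier bin, and at a given number the strong and the weaker single bin pairs were close. With 2 to 4 interactions at the busier bin, 55.2% (44.7 to 65.2%) of the strong and 55.7% of the weaker single bin pairs held a motif in a bin. With 5 to 9 the shares were 65.3% and 64.7%, with 10 to 19 they were 79.3% (73.5 to 84.1%) and 74.8%, and with 20 or more 85.0% (78.4 to 89.9%) and 88.7%. The weaker pair's share lay within the interval of the strong one in each of these classes, so that a difference at a like number of interactions was not detectable with these numbers of pairs.

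CAGGTG, an E-box of the kind that wild-type TCF3 binds through the part that the fusion lacks, showed no such split. It occurred on either strand in 95.9% (93.9 to 97.2%) of the busier bins and in 96.3% (94.8 to 97.3%) of the bins 25 kb away, with a mean of 4.60 and 5.00 per bin. At these shares a bin of 5 kb can hardly separate the groups.

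CTCF motifs were searched on both strands as exact matches to the 12-base core of the consensus with its variable positions free. They were found in 14.1% (11.5 to 17.2%) of the busier bins and 15.9% (13.4 to 18.8%) of the less busy bins, against 13.9% of the bins 25 kb from either. Per bin the means were 0.155 and 0.175, against 0.161 and 0.149 in the bins 25 kb away. Matches to this pattern were thus about as frequent in bins that were not anchors. Of the strong merged interactions, 22.2% (19.3 to 25.5%) of the less busy bins held one, against 13.3% (11.3 to 15.7%) 25 kb away. Both bins held a CTCF motif in 22 strong single bin pairs, and in 18 of them each bin had motifs of 1 orientation. Of these 18, 8 faced each other, 9 pointed the same way and 1 pointed apart. The convergent share was 44.4% with a wide interval of 24.6 to 66.3%, against 28.9% of the 945 such pairs in the list, which lies within that interval.

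**Figure D4:**
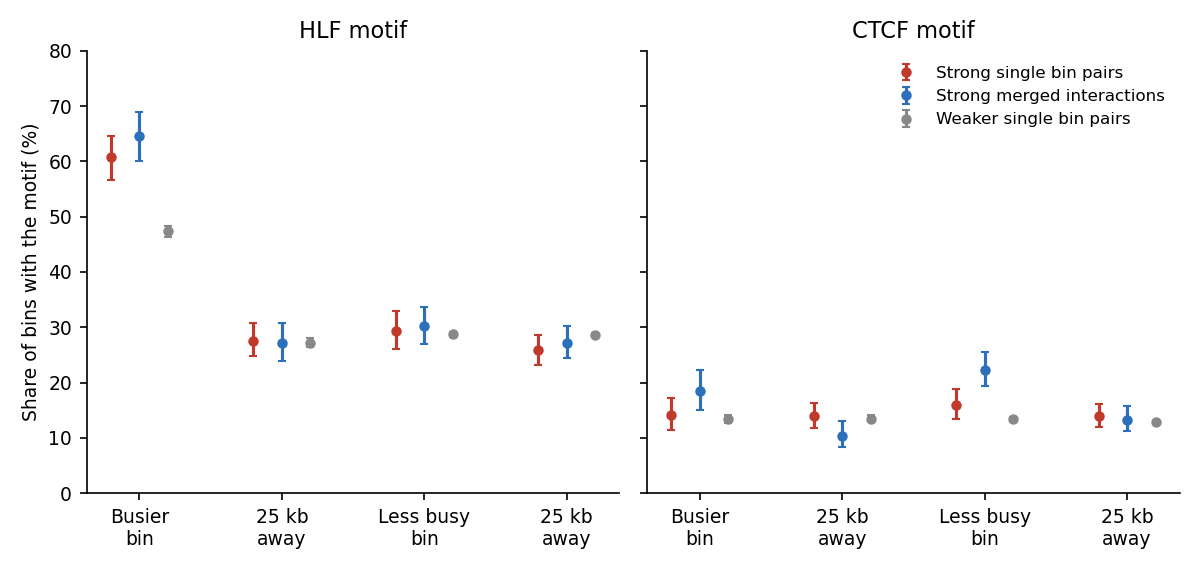
Share of distinct bins (%) that hold an HLF motif (left) or a CTCF motif (right), for the busier bin, the less busy bin and the non-anchor bins 25 kb from each, in strong single bin pairs (red), strong merged interactions (blue) and weaker single bin pairs (gray). Points are shares and lines are Wilson 95% intervals; the HLF share is 60.7% in the busier bins of the strong single bin pairs and between 25.8% and 29.4% in their other bins.

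An example of facing matches to this CTCF pattern lay in ARHGEF6, between a bin in an intron and a bin with the start of one of its transcripts. Whether CTCF binds at these matches was not examined. The lines give the 12 bases of the motif in capitals with 8 bases on each side, each read along its own strand.
Intron of ARHGEF6, chrX:136719710-136719721, plus strand: agttaaaaCCAAAAGGTGGCtctttgaa
UTR of ARHGEF6, in the bin with a transcript start, chrX:136767202-136767213, minus strand: aacggcttCCAGGAGGCGGCggcggcgc

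A protein-coding gene started in a bin, by any of its coding transcripts, in 121 strong single bin pairs (17.2%; 14.6 to 20.2%), against 16.2% of all listed interactions, and the interval holds that value. The strong merged interactions had 21.3% (18.4 to 24.5%). Starts in both bins were found in 9 pairs (1.28%), against 1.11% of all listed interactions, and 132 genes started in the bins in all. In the 112 pairs with a start in 1 bin only, the bin with the start was the busier one in 51 and the other bin in 60, and 1 pair had bins of equal number. An HLF motif lay in 43 of the start bins (38.4%; 29.9 to 47.6%) and in 49 of the other bins (43.8%; 34.9 to 53.0%), and these intervals overlap.

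Examples of the 132 genes that started in these bins follow, chosen after their values were seen and not for any theme of the 132. NR3C1, the glucocorticoid receptor, had its start bin joined to ARHGAP26 over 275 kb with 60 counts (45.8 to 77.2), 2.55 times the median at that distance. This start bin was itself a hub with 29 interactions and 2 HLF motifs, and its partner was used once. CX3CR1, the receptor for fractalkine, had 63 counts (48.4 to 80.6) over 180 kb and 59 counts (44.9 to 76.1) over 50 kb from a start bin with 12 interactions and 2 motifs. In these genes the hub lay at the start of the gene.

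In others the hub lay at the far end. CCR1, a chemokine receptor, had 60 counts (45.8 to 77.2) from a start bin used once to a bin within FYCO1 with 18 interactions, 215 kb away. CD86, a costimulatory ligand for T cells, had 58 counts (44 to 75) from a start bin used once to a bin within MIX23 with 12 interactions and 1 HLF motif, 265 kb away. PTGER4, a receptor for prostaglandin E2, had 69 counts (53.7 to 87.3) over 265 kb to a bin with 15 interactions. EFNB2, a ligand of Eph receptors, had 77 counts (60.8 to 96.2) over 380 kb to an intergenic bin with 13 interactions and 1 motif.

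TOP2A, the topoisomerase of dividing cells, had 76 counts (59.9 to 95.1) over 115 kb to an intergenic bin nearest CCR7, with 1 HLF motif in each bin. CD1B, which presents lipid antigens, had 60 counts (45.8 to 77.2) and 52 counts (38.8 to 68.2) from a start bin with 14 interactions. PPIA, or cyclophilin A, and H2AZ2, a histone variant, were joined start to start over 50 kb with 72 counts (56.3 to 90.7), and H2AZ2 was also joined to the start of TBRG4 with 51 counts (38 to 67.1) over 265 kb.

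Of 34 B-lineage genes 12 had a listed interaction at their start, and 2 of these 12, BCL6 and IRF8, had a strong single bin pair. BCL6, a transcriptional repressor active in germinal center B cells, was joined to the LPP bin with 33 interactions over 550 kb. The contact count of this pair, 82, was 4 times the median of 20.5 at that distance. IRF8, a factor of B and myeloid cells, had 51 counts (38 to 67.1) over 60 kb to an intergenic bin with 1 HLF motif, 1.89 times the median of 27. The 28 listed interactions of these B-lineage genes thus held 2 strong single bin pairs and 2 strong merged interactions. In the whole list of 49245 these classes numbered 704 and 689.

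Of 38 stem cell and leukemia factors 15 had 84 listed interactions at their starts, of which 0 were strong single bin pairs and 5 were strong merged interactions. Of 24 genes of leukocyte adhesion and migration 11 had 21 listed interactions, of which 0 were strong single bin pairs and 1 was strong merged. A list aimed at tandem and duplicated gene families took genes by the start of their symbol only. It had 322 listed interactions at the starts of 141 genes. Of these interactions 8 were strong single bin pairs, at H2AZ2, ZNF185, ZNF217, ZNF230, ZNF428, ZNF593 and ZNF682. A symbol does not show that a gene has copies, and copies of these genes were not examined. Strong single bin pairs make up 1.43% of the list, and strong merged interactions are 689 of its 49245. Gene lists of this size thus leave few of either to be found.

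Both bins lay in the same protein-coding gene in 174 strong single bin pairs (24.7%; 21.7 to 28.0%), against 13.1% of all listed interactions and 32.8% (29.4 to 36.4%) of the strong merged interactions. The share was lower at larger distances, and the distances differed between the classes. At 50 to under 100 kb it was 37.6% (32.4 to 43.2%), against 31.1% (30.1 to 32.1%) of the weaker single bin pairs, and at 100 to under 200 kb 19.6% (14.7 to 25.7%) against 17.9%. At 200 to under 500 kb it was 12.6% (8.21 to 18.8%) against 7.38% (6.94 to 7.84%), and at 500 kb to 3 Mb 3.92% (1.08 to 13.2%) against 1.31% (1.14 to 1.51%). A protein-coding gene started between the bins of 448 pairs (63.6%; 60 to 67.1%), against 75.1% of all listed interactions, and within a distance band the share was close to that of the weaker single bin pairs, with 48.5% against 50.6% under 100 kb and 80.1% against 80.4% at 200 to under 500 kb. Among the 121 pairs with a gene start in a bin, 89 had a transcript start of at least 1 protein-coding gene between the bins, which can be a further start of a gene that reaches into a bin.

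The most distant strong single bin pair joined the start bin of CASK, a scaffold protein of synapses, to a bin within KDM6A, a histone demethylase, on chromosome X. It had 61 counts (46.7 to 78.4) over 3000 kb, the largest distance of the list, where the median of 9 listed interactions was 17 counts. The start bin of RFX3, a factor of ciliated cells, and a bin nearest RANBP6 had 51 counts (38 to 67.1) over 2550 kb, with 20 protein-coding genes starting in between. A pair with no coding gene in its bins on chromosome 2, 301 kb from the start of ERBB4 on one side and 22.1 kb from that of ATIC on the other, had 59 counts (44.9 to 76.1) over 2445 kb. These 3 pairs held no HLF motif.

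The next in distance were a pair nearest NFIA and ATG4C with 54 counts (40.6 to 70.5) over 2110 kb, with 1 motif in each bin, and a pair of an intergenic bin nearest TRAM1L1 and NDST3 with 50 counts (37.1 to 65.9) over 1865 kb, with 4 and 1 motifs. Of these 5 most distant pairs 2 thus held an HLF motif, against 67.9% of all listed interactions at 500 kb to 3 Mb. None of them had another listed interaction within 25 kb, and only 10.8% of all listed interactions at 500 kb to 3 Mb had one. The nearest to these 5 pairs lay 60 to 900 kb away.

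The strong single bin pairs were spread over all 23 chromosomes of the list, from 79 on chromosome 1 to 8 on chromosome 21. Per 1000 listed interactions, chromosome 7 held the most, with 20.9 (Wilson 95% interval, 16.0 to 27.3), and chromosome 5 the fewest, with 5.91 (3.70 to 9.45). These are the extremes of the 23 chromosomes, picked after the values were seen, and their intervals are not adjusted for this choice. Chromosomes 17 and 19, which carry the partner genes of the fusion, held 15.3 (10.7 to 21.9) and 13.3 (7 to 25). The copy number of the chromosomes in HAL-01 was not analysed here, and its part in these values was not tested.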

How the data were processed

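TCF3::HLF-HiChIP was analysed from the deposited interaction list of TCF3-KO HAL-01 cells, with 2 replicates merged by the authors. According to the methods and the processing notes, the authors trimmed reads with Trim Galore 0.6.6, aligned them to hg38 with BWA, extracted read pairs with pairtools without removing copies, used MACS2 peaks and called interactions with FitHiChIP (50 kb to 3 Mb, q-value under 0.01), merging nearby contacts. The version of FitHiChIP is not given in the sources used here. The contact count and the sumCC are read counts that the authors deposited without normalization. The deposited p-value and q-value come from FitHiChIP's model of distance and bias. Other deposited columns, such as the fraction that describes how much of a group was significant, were not used beyond checking the merged ranges.

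The strong single bin pairs and the gene lists were chosen with earlier results of these data known. The comparisons of busier and less busy bins, of bins 25 kb away, of CAGGTG, of motif shares by the number of interactions, of motif places, of genes between bins or around both bins and of nearby interactions, and the genes such as NR3C1 that belong to no list, were chosen after the list was seen. The rule for named genes took the 15 pairs with the largest contact counts, the 5 most distant, the 5 largest relative to the median at their distance (all among the 15), the 5 with most shared 31-mers, the 5 bins in most pairs, and pairs at starts of list genes. Of the 15 pairs, 1 is not reported here, though counts over the 15 include it. Bins were named with GENCODE release 44 on hg38; 0 of the 53535 anchor bins lay past a chromosome end. Motif places use exons of coding transcripts. HLF motifs were exact matches on either strand. A 31-mer counted as unique where hg38 holds it once on either strand.

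No test was run: shares have Wilson 95% intervals, contact counts exact Poisson 95% intervals and medians 95% intervals from order statistics. Bins and pairs are not independent samples. Depth behind the values is the contact count itself. The searches were tested on simulated sequence, where 50 of 50 planted HLF motifs, CTCF motifs and copies were recovered, copies with some chance matches beside them. The scripts ran with matplotlib 3.10.9, numba 0.67.0, pyfaidx 0.9.0.4, scipy 1.17.1, pandas 2.3.3 and numpy 2.4.6 in Python 3.11.15.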

Additional observations from a re-analysis of the deposited data

How the results depend on the processing

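Of 57 alternatives, 36 stayed within the 95% interval of the value given, or within 1.5 times the number of pairs, and 21 did not. With a contact count of at least 40, 2482 pairs were left, with a median distance of 150 kb, a hub in 44.1% and 87.4% unique 31-mers. With at least 75, 68 were left, at 85.0 kb, with an HLF motif in 77.9%, a hub in 63.2% and 89.9% unique 31-mers. With no other listed interaction within 25 kb, 255 were left, at 145 kb, with an HLF motif in 67.1%, a gene start in 14.5%, a hub in 35.7% and 87.2% unique 31-mers. Of these 3 settings, the last brought the HLF share next to the 66.8% of all listed interactions, which were not filtered in this way. The share with a motif was 10.1% for TTACGTAA only (8.34% of all listed interactions) and 89.9% with 1 bin added on each side (90.4%). A gene start lay within 10 kb of a bin in 47.7% (46.7%). A hub of 5 or more was present in 86.8% (76.2%), and one of 20 or more in 20.9% (7.49%). The mean of both bins gave 92.0% unique 31-mers. Distances up to 1 Mb and leaving out chromosomes 17 and 19 moved none of these results. A q-value under 1e-05 could move none, because the highest q-value of the 704 pairs was 8.42e-16. It dropped no pair, and its alternatives are counted among the 36. The shares of near-identical bins and of convergent CTCF motifs moved under none of their alternatives, with 18 pairs behind the latter. The replicates were merged before deposit, so no value without a replicate could be computed. No paired analysis was possible because the list has 1 group and no column per replicate. Counting error, without copies of read pairs removed, is the only error that could be given.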
